A study of Rattus norvegicus with 24 samples.

Results

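Gastrocnemius muscle of cachectic rats that had trained on a treadmill (CC-Ex) was compared with that of healthy rats that had not trained (Sed), to find which genes lay away from the untrained healthy level after disease and training together. The members are the libraries whose labels read Monocrotaline-Exercised (6) or Saline-Sedentary (6), 12 of the 24 in the series. Each library came from the medial head of the left gastrocnemius of 1 male Wistar rat, and no animals were pooled. CC-Ex rats had received a single injection of monocrotaline, a plant alkaloid that injures the lung vessels and through them overloads the right ventricle, and had then run on a treadmill. Sed rats had received saline and did no training. The other groups, saline with training (Ex) and monocrotaline without training (CC-Sed), also with 6 rats each, entered the statistical model and are used beside the results.

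The 2 groups differ in both the agent and the training, so their separate parts in a CC-Ex vs. Sed difference cannot be told apart from that contrast. The muscle was taken days after the last exercise capacity test. CC-Ex libraries came from animals that lived to the end of the experiment and had an enlarged right ventricle, so the group describes survivors. The defining markers of fast muscle were abundant in both groups: 16 fast-fibre sarcomere genes summed to between 153308 and 236996 CPM, the TMM-scaled read count relative to library size, in Sed and between 137769 and 271150 CPM in CC-Ex.

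Muscle loses mass when protein breakdown outruns synthesis. FoxO transcription factors turn on the ubiquitin ligases and autophagy genes of breakdown, insulin and growth factors hold FoxO out of the nucleus, and mTOR complexes drive synthesis unless brakes such as Ddit4 and the sestrins are raised. Glucocorticoids, released in illness and fasting, act through their nuclear receptor on many of the same genes, while endurance training is known for raising oxidative capacity and blood supply in this tissue.

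Total counts lay between 39684162 and 48865145 per rat and did not differ detectably between CC-Ex and Sed (exact permutation test, p = 0.636, where the smallest p that 6 against 6 rats allow is 0.00216). CC-Ex rats were more unlike each other than Sed rats were, with a biological coefficient of variation of 0.298 against 0.165. On the first principal component, which held 39.7% of the variance, CC-Ex was higher than Sed by 32.2 units (exact p = 0.0173), and CC-Ex replicate 5 stood apart at 96.5 units. CC-Ex libraries also carried lower library numbers than Sed libraries, with means of 5.83 and 16.5 (exact p = 0.0130). What these numbers stand for is not stated, and with the library number as a covariate 56 genes were called, 41 of them among the 65 given next.

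A differentially expressed gene (DEG) had a Benjamini-Hochberg adjusted p-value under 0.05 in edgeR's quasi-likelihood test and a Log2FC of 1 or more in either direction, always as CC-Ex minus Sed. Of 10851 genes tested, 65 were DEGs (0.599%), 56 higher (0.516%) and 9 lower (0.0829%) in CC-Ex. By the adjusted p-value alone, 109 genes were higher (1.00%) and 18 lower (0.166%), and at an unadjusted p-value under 0.05 there were 1497 higher (13.8%) and 697 lower (6.42%). The median Log2FC over all genes was 0.02. For 8967 genes (82.6%) the 95% interval of the Log2FC lay wholly between -1 and 1, so for most of the measured transcriptome a change of that size from the Sed level was outside the interval.

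**Figure D1:**
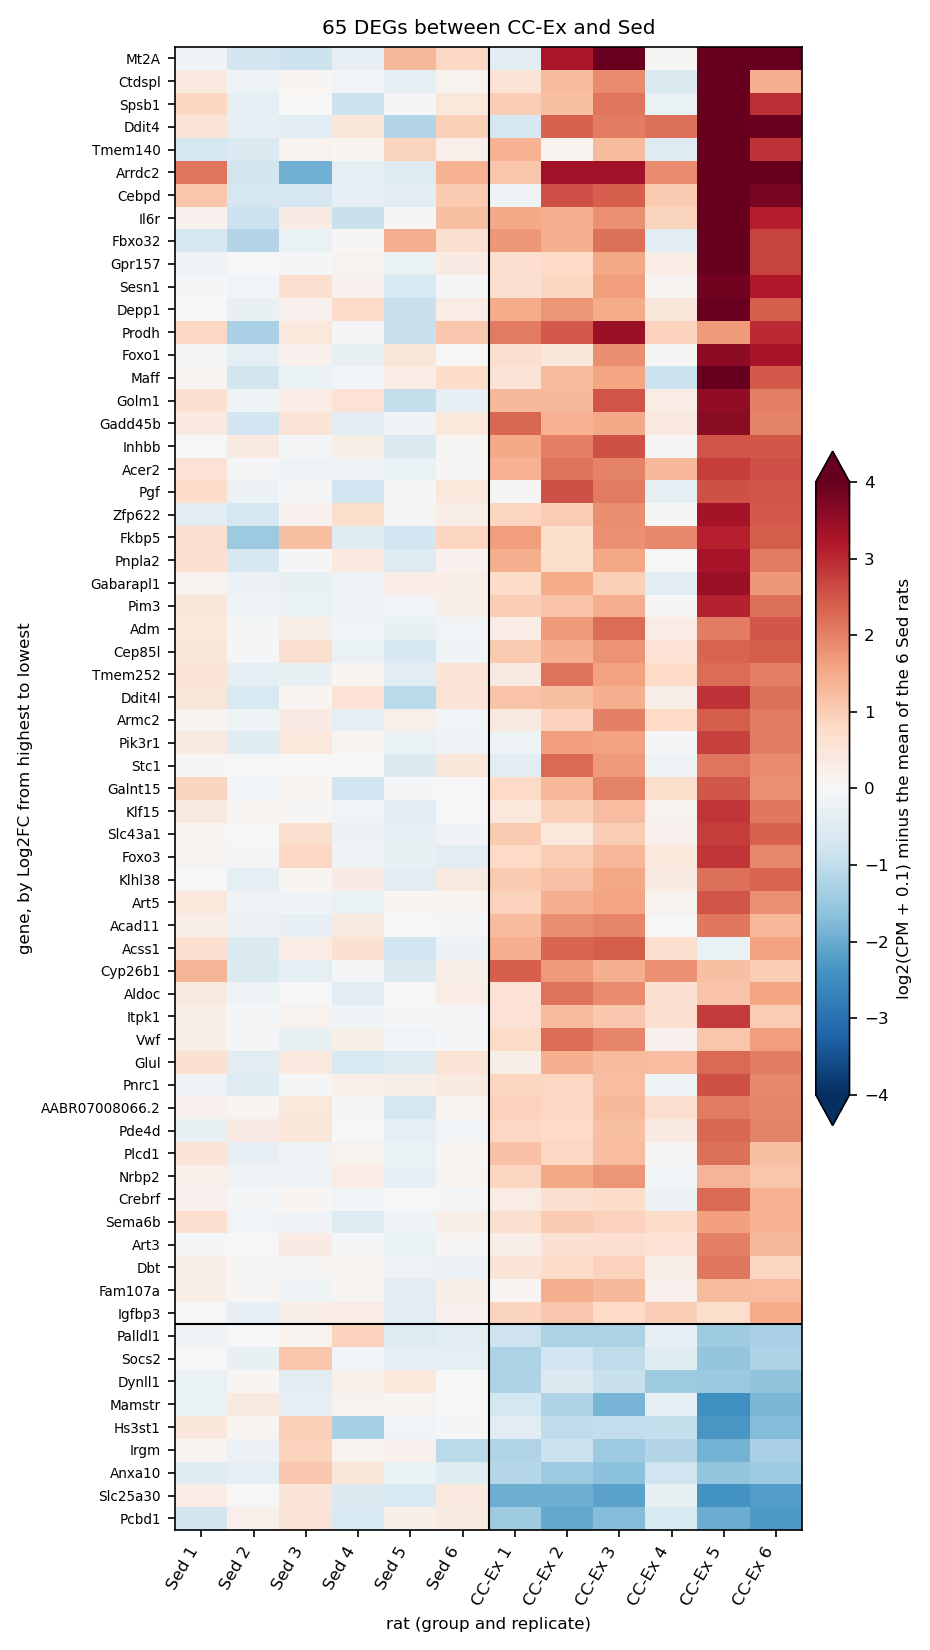
Heat map of the 65 DEGs (rows, ordered by Log2FC) in the 6 Sed and 6 CC-Ex rats (columns); colour gives log2(CPM + 0.1) minus the mean of the Sed rats, cut at 4. CC-Ex 5 has the darkest column, being the highest CC-Ex rat in 42 of the 56 higher DEGs, and CC-Ex 4 the palest, being the lowest in 37.

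The CC-Ex rats differed widely from each other in the DEGs. As these genes were called from these same rats, the DEG criterion favours counts above or below Sed. The counts per rat that follow therefore only set the CC-Ex rats beside each other, and none was made over all genes. Of the 56 higher DEGs, CC-Ex 3 was above every Sed rat in 56, CC-Ex 6 in 55, CC-Ex 5 in 54, CC-Ex 2 in 51, CC-Ex 1 in 39 and CC-Ex 4 in 14. Of the 9 lower DEGs, CC-Ex 5 and CC-Ex 6 lay below every Sed rat in 9, and CC-Ex 4 in 4. Because of this spread, groups without overlap were few: every CC-Ex rat was above every Sed rat in 87 genes of the whole table (0.802%) and below in 49 (0.452%), and among the DEGs in 6 and 3, which the DEG criterion itself favours. The 6 are Acer2, Igfbp3, Aldoc, Itpk1, Armc2 and AABR07008066.2, and the 3 are Anxa10, Socs2 and Dynll1.

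The calls were sensitive to single animals. In fits that each left out 1 of the 12 rats, 6 DEGs were called in all 12 fits, 20 in at least 9 and 27 in at most 4. The 6 called throughout were Acer2, Inhbb, Acad11, Vwf, Irgm and Anxa10. Without CC-Ex 5, 27 genes were DEGs and 22 of them were among the 65. Without CC-Ex 4, 257 genes were called, and without CC-Ex 1, 147, in both cases with all 65 among them. Leaving out a Sed rat lowered the count, to 55, 7, 36, 34, 6 and 28 for Sed 1 to Sed 6 in turn, and it was 61, 36 and 11 without CC-Ex 2, 3 and 6. The sign of all 65 was kept in every one of these fits.

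**Figure D2:**
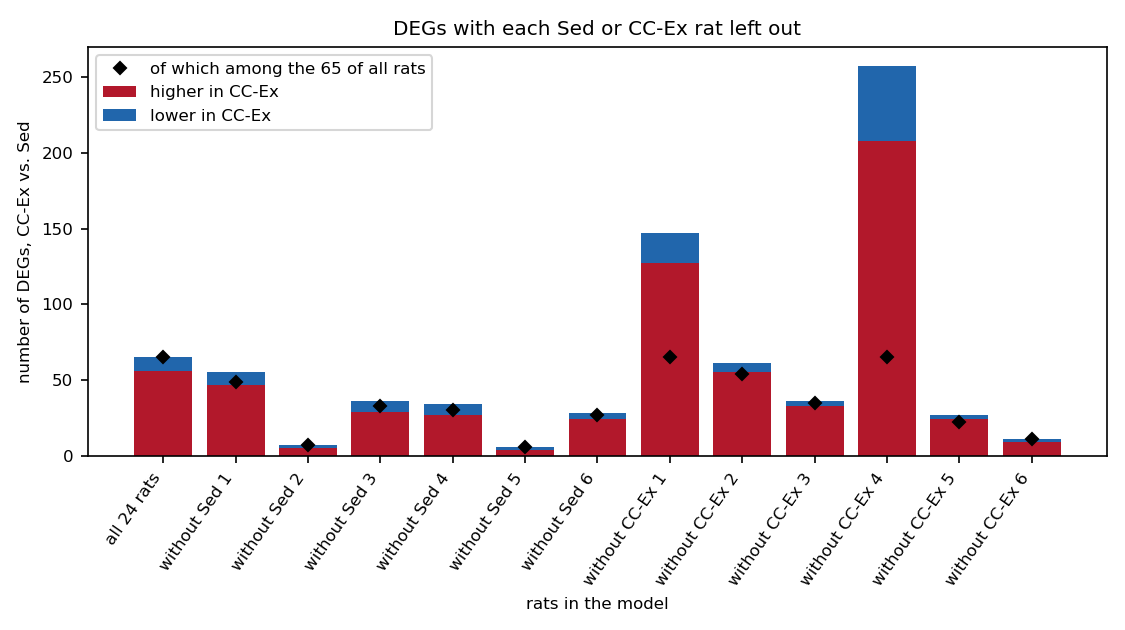
Number of DEGs between CC-Ex and Sed (bars, higher in red and lower in blue) with all 24 rats and with each of the 12 rats left out; diamonds count those that are among the 65 of all rats. The bars run from 6 without Sed 5 to 257 without CC-Ex 4.

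The gene with the smallest p-value was Acer2, an alkaline ceramidase that releases sphingosine from ceramide in the Golgi. Its level in Sed rats ran from 2.81 through a median of 3.20 to 5.16 CPM, and in CC-Ex rats from 8.78 through 14.7 to 23.7 CPM. No CC-Ex rat reached down to the Sed range, and the Log2FC was 2.13 (SE 0.258, adjusted p = 0.000279). Acer2 was also the only DEG when the model held the 12 Sed and CC-Ex rats alone. That model estimates error from those 12 rats, whereas the main fit shares its estimate with the Ex and CC-Sed rats. The other calls among the 65 were thus not made from the compared groups alone.

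Inhbb, the beta B subunit of activins and inhibins, lay between 0.574 and 1.2 CPM in Sed (median 0.948) and between 0.960 and 5.81 CPM in CC-Ex (median 4.82), with a Log2FC of 2.15 (SE 0.334, adjusted p = 0.00550). Only CC-Ex 4 was inside the Sed range. Acad11, an acyl-CoA dehydrogenase, ran from 23.5 to 37.5 CPM across Sed (median 28.6), and 29.7 to 126 CPM across CC-Ex (median 90.1), with a Log2FC of 1.54 (SE 0.267, adjusted p = 0.0144). Vwf encodes von Willebrand factor, the endothelial glycoprotein that tethers platelets. It ran from 22.9 to 33.9 CPM in Sed rats (median 26.8), against 31.2 to 133 CPM in CC-Ex rats (median 75.0), with a Log2FC of 1.47 (SE 0.261, adjusted p = 0.0144). For these genes too, CC-Ex 4 was the only trained cachectic rat within the Sed range.

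**Figure D3:**
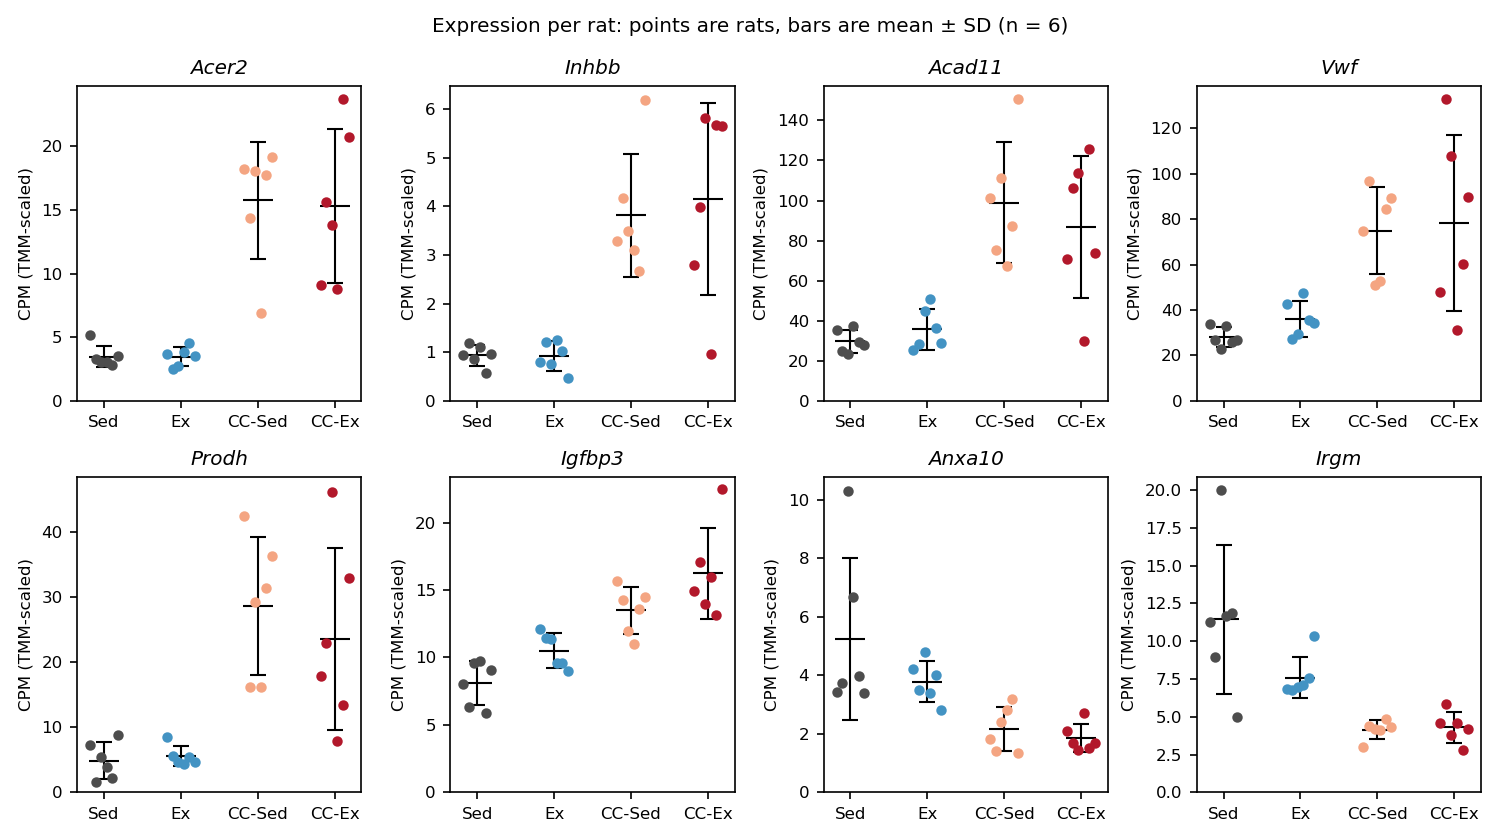
CPM of 8 genes in each rat of the 4 groups (points), with mean and SD (bars, n = 6). In Acer2, Igfbp3 and Anxa10 no CC-Ex point enters the Sed range, whereas in Inhbb, Acad11 and Vwf the lowest CC-Ex point, CC-Ex 4, does.

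The list of the FoxO axis and mTOR brakes had 27 members in the table. Its members include growth-promoting genes such as Igf1, Akt1 and Mtor. The list median is thus not that of brakes alone. Of the 27 members 8 were DEGs, all higher (beside 0.516% of all genes). The list median Log2FC was 0.80 against 0.02 for all genes. At an unadjusted p-value under 0.05 in edgeR, 16 were higher and 4 lower, beside 13.8% and 6.42% of all genes. Ddit4, the stress-induced inhibitor of mTORC1, ran from 6.05 to 26.6 CPM across Sed (median 14.8), and 8.54 to 381 CPM across CC-Ex (median 66.6), with a Log2FC of 3.10 (SE 0.627, adjusted p = 0.0207). All CC-Ex rats but replicate 1 were above every Sed rat. Its paralogue Ddit4l had a Log2FC of 1.65 (SE 0.392, adjusted p = 0.0405) and Sesn1, a sestrin that restrains mTORC1 when amino acids are scarce, 2.33 (SE 0.512, adjusted p = 0.0297). The transcription factors themselves were higher as well. Foxo1 ran from 9.63 to 17.2 CPM in Sed rats (median 12.3), against 12.9 to 149 CPM in CC-Ex rats (median 32), with 4 of 6 CC-Ex rats above all Sed rats and a Log2FC of 2.27 (SE 0.518, adjusted p = 0.0342). Foxo3 had a Log2FC of 1.57 (SE 0.346, adjusted p = 0.0297), and Depp1, a known FoxO target, 2.29 (SE 0.447, adjusted p = 0.0207).

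The last 2 DEGs of the list were Gadd45b, a stress sensor induced in wasting muscle, with a Log2FC of 2.16 (SE 0.410, adjusted p = 0.0197), and Klf15, a metabolic transcription factor induced by glucocorticoids, with 1.59 (SE 0.347, adjusted p = 0.0295). With a rat left out, between 0 and 14 members were DEGs: 0 without Sed 2 or Sed 5, 1 (Gadd45b) without CC-Ex 6, 3 (Ddit4, Depp1 and Gadd45b) without CC-Ex 5, Sed 4 or Sed 6, and 14 (12 higher and 2 lower) without CC-Ex 4. The model of the 12 rats alone called 0 and the replicate block 1. The list median stayed above 0 in each of these fits and was lowest, at 0.40, without CC-Ex 5. DESeq2 called 12 higher members and 1 lower, and limma-voom 9 higher and 1 lower.

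Glucocorticoid-responsive genes formed the list furthest from the Sed level among those with 20 or more members measured. As the lists were chosen with earlier results of these data known, this rank is a description and was not tested. Of 26 measured members 10 were DEGs, all higher (beside 0.516% of all genes), and the list median was 1.42. No member was lower at an unadjusted p-value under 0.05, beside 6.42% of all genes. Ddit4, Sesn1, Klf15 and Acer2, described above, belong to it, as does Mt2A, described next. Fkbp5, the co-chaperone that dampens the glucocorticoid receptor and is one of its most reliable targets, ran from 10.5 to 66.4 CPM across Sed (median 32.6), and 46.9 to 246 CPM across CC-Ex (median 105). All CC-Ex rats but replicate 2 lay above every Sed rat, and the Log2FC was 1.82 (SE 0.431, adjusted p = 0.0382). Cebpd, a C/EBP transcription factor, had a Log2FC of 2.72 (SE 0.580, adjusted p = 0.0257), and Arrdc2, an arrestin-domain protein, 2.90 (SE 0.718, adjusted p = 0.0476). Pik3r1, the regulatory subunit of PI3-kinase, had 1.62 (SE 0.380, adjusted p = 0.0378). Glul, the glutamine synthetase through which muscle exports nitrogen, ran from 573 to 1325 CPM in Sed rats (median 901), against 1034 to 4189 CPM in CC-Ex rats (median 2235). Only CC-Ex 1 lay within the Sed range of Glul (Log2FC 1.46, SE 0.320, adjusted p = 0.0297). Klf9, a feed-forward target of the receptor, passed the adjusted p-value but not the size criterion (Log2FC 0.71, SE 0.166, adjusted p = 0.0378), although all 6 CC-Ex rats, at 94.2 to 203 CPM, exceeded the 6 Sed rats, at 68.9 to 92.2 CPM. With a rat left out, between 1 and 14 members were DEGs: Acer2 alone without Sed 2, Sed 5 or CC-Ex 6, Acer2 and Ddit4 without CC-Ex 5 or Sed 4, and 14 members without CC-Ex 1 or CC-Ex 4. The model of the 12 rats alone called 1 and the replicate block 2. The list median was lowest, at 0.87, without CC-Ex 5. DESeq2 called 14 members and limma-voom 9.

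The largest Log2FC of the comparison belonged to Mt2A, a metallothionein that binds zinc and copper and responds to metals and to glucocorticoids. It lay between 1.13 and 5.39 CPM in Sed (median 1.79) and between 1.59 and 1295 CPM in CC-Ex (median 28). The Log2FC of 6.52 (SE 1.45, adjusted p = 0.0307) rested heavily on 1 animal: without CC-Ex 5 it was 3.06 with an adjusted p-value of 0.130. CC-Ex 1 and CC-Ex 4 stayed within the Sed range, and the other 4 were above it. Limma-voom, which gives less weight to aberrant libraries, did not call it.

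Promoter sequences were read for the DEGs to show what the higher genes carry at their start sites, and 2 are printed. Among the higher DEGs with a promoter, Mt2A held the most metal response element cores and Tmem140 was the only one with the FoxO motif. RefSeq promoters of 300.0 bases on build GRCr8, from 250 bases before to 50 after the start, matched 8728 of the 10851 genes by symbol, 43 of the 56 higher and 7 of the 9 lower DEGs. The metal response element core, TGCACNC or TGCGCNC on either strand, occurred 4 times in the Mt2A promoter (chr19:10838659-10838958, minus strand), as it did in 0.779% of all promoters. The FoxO motif GTAAACA occurred, as its reverse complement TGTTTAC, in the promoter of Tmem140 (chr4:64503371-64503670, plus strand), a membrane protein gene. Capitals mark the metal response element cores in the first sequence and the FoxO motif in the second.
Mt2A: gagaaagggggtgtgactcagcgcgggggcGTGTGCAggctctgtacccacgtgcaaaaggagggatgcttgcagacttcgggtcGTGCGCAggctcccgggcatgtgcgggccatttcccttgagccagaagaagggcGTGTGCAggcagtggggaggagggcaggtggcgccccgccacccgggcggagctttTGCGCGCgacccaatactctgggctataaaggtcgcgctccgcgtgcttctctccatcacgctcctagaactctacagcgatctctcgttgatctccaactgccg
Tmem140: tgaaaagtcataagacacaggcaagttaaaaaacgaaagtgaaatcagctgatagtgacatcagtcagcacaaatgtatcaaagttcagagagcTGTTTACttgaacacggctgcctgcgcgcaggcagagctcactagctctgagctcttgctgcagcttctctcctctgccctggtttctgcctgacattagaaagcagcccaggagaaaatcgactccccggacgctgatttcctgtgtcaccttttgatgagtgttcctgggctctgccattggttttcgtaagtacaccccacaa

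In Mt2A the cores begin 220, 165, 111 and 55 bases before the start site. Across the set, at least 1 such core was in 44.2% of the promoters of higher DEGs and in 37% of all promoters. The FoxO motif was in 2.33% of the higher DEGs, Tmem140 alone, and in 2.44% of all promoters, and an E-box (CACGTG) was in 16.3% and 9.80%. The full glucocorticoid receptor palindrome was in none of the 8728 promoters, and its arm AGAACA, on either strand, was in 16.3% of the higher DEGs and 12.1% of all. A match says only that the letters are within this window.

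Genes of protein breakdown were read in 3 lists. Of 19 ubiquitin ligases tied to atrophy, 1 was a DEG (beside 0.516% of all genes higher), Fbxo32 (atrogin-1), which tags muscle proteins for the proteasome. It ran from 52.3 to 326 CPM across Sed (median 111), and 86.0 to 2755 CPM across CC-Ex (median 469.9), with 4 of 6 CC-Ex rats above all Sed rats. Its Log2FC was 2.51 (SE 0.625, adjusted p = 0.0481), and without CC-Ex 5 it was 1.56 with an adjusted p-value of 0.153. Trim63 (MuRF1), the ligase of the thick filament, ran from 159 to 640.4 CPM in Sed rats, against 190.2 to 4846 CPM in CC-Ex rats, where CC-Ex 5 was the highest, and did not pass (Log2FC 2.01, SE 0.649, adjusted p = 0.0971). Cblb, which targets insulin receptor substrates, had a Log2FC of 1.33 (SE 0.347, adjusted p = 0.0551). Of the 19 ligases, 9 were higher and 4 lower at an unadjusted p-value under 0.05 in edgeR, beside 13.8% and 6.42% of all genes.

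Of 40 autophagy and lysosome genes, 1 was a DEG (beside 0.516% of all genes higher), Gabarapl1, which is coupled to the autophagosome membrane. Its Sed range was 53.9 to 80.5 CPM (median 65.9) and its CC-Ex range 48.9 to 702 CPM (median 158), with CC-Ex 4 below all Sed rats and the other 5 above. The Log2FC was 1.8 (SE 0.417, adjusted p = 0.0367), and 1.04 with an adjusted p-value of 0.103 without CC-Ex 5. Map1lc3b (LC3B, Log2FC 2.08, SE 0.541, adjusted p = 0.0551), the mitophagy receptor Bnip3 (1.43, SE 0.395, adjusted p = 0.0684) and the lysosomal protease Ctsl (1.42, SE 0.459, adjusted p = 0.0979) did not pass. In Map1lc3b, CC-Ex 5 was at 897.6 CPM and the next CC-Ex rat at 150.4 CPM. DESeq2 called 4 of the 40 (Bnip3, Ctsl, Gabarapl1 and Map1lc3b) and limma-voom 2, and edgeR called 7 without CC-Ex 4 and 0 without CC-Ex 5, CC-Ex 6 or any 1 of the Sed rats. At an unadjusted p-value under 0.05, 18 of the 40 were higher and 2 lower in edgeR, beside 13.8% and 6.42% of all genes. The ligases numbered 3 DEGs in DESeq2, 1 in limma-voom, and 0 to 4 with a rat left out. None of 38 proteasome subunits was a DEG in edgeR, DESeq2 or limma-voom. At an unadjusted p-value under 0.05 in edgeR, 3 were higher and 1 lower, smaller shares than the 13.8% and 6.42% of all genes. Their median of 0.36 fell to 0.04 without CC-Ex 5.

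Klhl38, a kelch-family gene, and Zfp622, a zinc-finger gene, were also higher. Klhl38 ran from 19.7 to 34.8 CPM across Sed (median 27.9), and 34.4 to 135 CPM across CC-Ex (median 70.1), with only CC-Ex 4 inside the Sed range (Log2FC 1.57, SE 0.283, adjusted p = 0.0144). Zfp622 ran from 102 to 273 CPM in Sed rats, against 172 to 1698 CPM in CC-Ex rats (Log2FC 1.93, SE 0.435, adjusted p = 0.0325). The first was called in 10 of the 12 fits that leave out a rat and the second in 4.

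**Figure D4:**
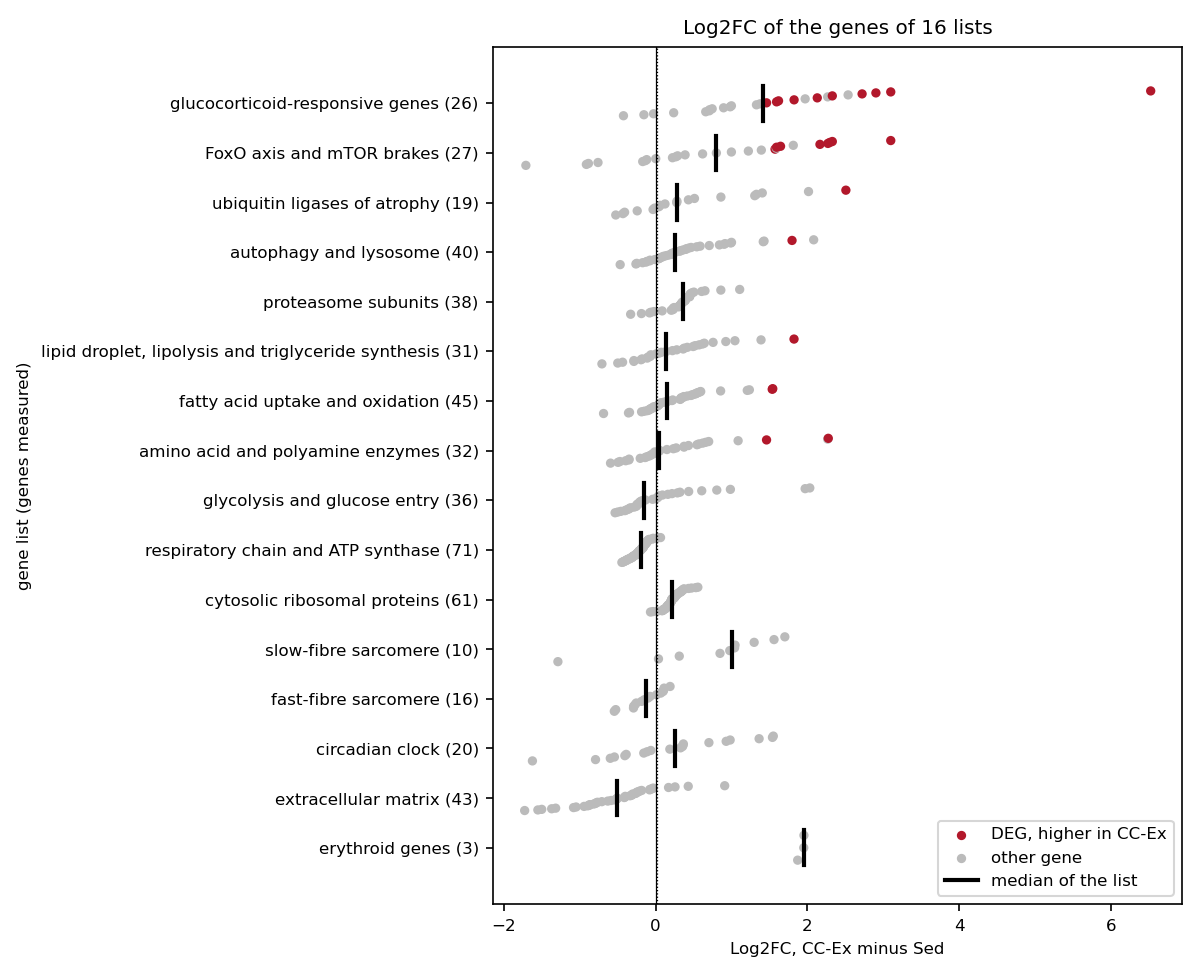
Log2FC of every measured member of 16 gene lists (points, number measured in brackets), with DEGs in red, the median of each list as a black bar and the median of all genes (0.02) as a dotted line beside 0. Red points gather in the glucocorticoid list (10 of 26, median 1.42) and the FoxO and mTOR list (8 of 27, median 0.80), and the respiratory chain (71 genes, median -0.20) and fast-fibre genes (16, median -0.12) have none. Of all genes, 0.516% were higher DEGs.

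In lipid handling, 1 of 31 droplet, lipolysis and triglyceride synthesis genes was a DEG (beside 0.516% of all genes higher). Pnpla2, the adipose triglyceride lipase that opens the breakdown of stored fat, ran from 60.9 to 153 CPM across Sed (median 99.6), and 93.8 to 950.1 CPM across CC-Ex (median 270.1). All CC-Ex rats but replicate 4 lay above every Sed rat (Log2FC 1.82, SE 0.439, adjusted p = 0.0411). Plin4, a coat protein of lipid droplets, had no overlap between its Sed range of 132 to 340.5 CPM and its CC-Ex range of 347 to 659 CPM, and its Log2FC of 0.93 (SE 0.210, adjusted p = 0.0335) missed only the size criterion. The enzymes of triglyceride assembly did not pass: Dgat2, which adds the last fatty acid, had a Log2FC of 0.62 with a 95% interval of -0.11 to 1.34 (adjusted p = 0.317), and Gpam, which adds the first, 0.42 with an interval of -0.38 to 1.21 (adjusted p = 0.548).

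Among 45 genes of fatty acid uptake and oxidation, 2 were DEGs (beside 0.516% of all genes higher), Acad11 and Acss1. Acss1, which makes acetyl-CoA from acetate in mitochondria, ran from 15.8 to 42.2 CPM in Sed rats (median 27.7), against 22.3 to 143 CPM in CC-Ex rats (median 77.5). Here CC-Ex 5 was the only CC-Ex rat in the Sed range, and the Log2FC rose from 1.54 (SE 0.356, adjusted p = 0.0367) to 1.72 (adjusted p = 0.0185) without it. Lipoprotein lipase, Lpl, which frees fatty acids from plasma lipids, spread from 81.1 to 1001 CPM in CC-Ex and from 73.7 to 391 CPM in Sed (Log2FC 1.24, SE 0.593, adjusted p = 0.245). The fatty acid transporter Slc27a1 had a Log2FC of 1.21 (SE 0.456, adjusted p = 0.150).

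Of 71 respiratory chain and ATP synthase genes, none was a DEG in edgeR and none reached an unadjusted p-value under 0.05. None was a DEG in DESeq2 or limma-voom either, although at the unadjusted level limma-voom had 2 lower. Of these 71, 69 had a Log2FC below 0, the median was -0.20, and for 63 the 95% interval lay between -1 and 1. Without CC-Ex 5 the median was -0.09. Of 36 glycolysis and glucose entry genes none was a DEG in any of the 3 tools. At an unadjusted p-value under 0.05 in edgeR 4 were higher, a smaller share than the 13.8% of all genes. Pdk2, a kinase that closes pyruvate dehydrogenase, was higher by the adjusted p-value at a small size (Log2FC 0.44, SE 0.109, adjusted p = 0.0494). Its better known relative Pdk4 ranged from 36.1 to 645 CPM across Sed, and 71.4 to 1848 CPM across CC-Ex, and with that spread its Log2FC of 1.97 (SE 0.798) had an adjusted p-value of 0.179.

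Amino acid enzymes gave 2 DEGs of 32 (beside 0.516% of all genes higher), Glul and Prodh. Prodh, proline dehydrogenase, starts the mitochondrial breakdown of proline. It ran from 1.61 to 8.78 CPM in Sed rats (median 4.67), against 7.87 to 46.1 CPM in CC-Ex rats (median 20.4), and only CC-Ex 4 lay within the Sed range. The Log2FC was 2.27 (SE 0.410, adjusted p = 0.0144), and 2.38 without CC-Ex 5. In branched-chain amino acid use, Dbt, a core subunit of the ketoacid dehydrogenase, was a DEG (Log2FC 1.03, SE 0.247, adjusted p = 0.0411), but at 0.65 without CC-Ex 5, whose level of 261 CPM lay far from the next. Bckdha of the same complex had a Log2FC of 0.66 (SE 0.167, adjusted p = 0.0513). Slc43a1, an exporter and importer of large neutral amino acids, had 1.58 (SE 0.395, adjusted p = 0.0481), and Kyat3, a kynurenine aminotransferase known from trained muscle, 0.70 (SE 0.168, adjusted p = 0.0411).

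Receptors and signalling proteins followed. Il6r, the interleukin-6 receptor, ran from 4.80 to 21.0 CPM across Sed (median 9.78), and 16.9 to 205 CPM across CC-Ex (median 29.3), with CC-Ex 4 alone in the Sed range (Log2FC 2.65, SE 0.548, adjusted p = 0.0221). Socs2, which shuts off growth hormone and cytokine receptors, moved the other way. It lay between 8.88 and 24.8 CPM in Sed (median 10.0) and between 3.80 and 8.25 CPM in CC-Ex (median 5.28), without overlap (Log2FC -1.13, SE 0.256, adjusted p = 0.0335). They were the only DEGs among 27 cytokine, STAT3 and NF-kB genes, beside 0.599% of all genes. Of 24 activin, myostatin and BMP genes, Inhbb was the only DEG (beside 0.516% of all genes higher), and myostatin itself, Mstn, had a Log2FC of -0.20 with an interval of -1.46 to 1.06. Smad3, which carries activin and TGF-beta signals, had -1.07 (SE 0.270, adjusted p = 0.0513) and Tgfb3, one of the ligands, -0.76 (SE 0.174, adjusted p = 0.0342), with all 6 CC-Ex rats below all Sed rats.

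Further signalling DEGs were Pim3, a kinase of cytokine signalling (Log2FC 1.79, SE 0.362, adjusted p = 0.0207), Pde4d, which degrades cyclic AMP (1.38, SE 0.299, adjusted p = 0.0295), Plcd1, a phospholipase C (1.23, SE 0.286, adjusted p = 0.0367), and Itpk1, an inositol phosphate kinase. Itpk1 lay between 3.22 and 4.26 CPM in Sed and between 5.53 and 25.9 CPM in CC-Ex without overlap (Log2FC 1.49, SE 0.311, adjusted p = 0.0230), and at 0.96 without CC-Ex 5. Spsb1, Ctdspl, Tmem140 and Gpr157 had Log2FCs of 3.13, 3.13, 3.02 and 2.44. Without CC-Ex 5 they had 1.69, 1.11, 1.40 and 1.46, and of these Gpr157 alone kept an adjusted p-value under the threshold (0.0423). CC-Ex 5 was the highest CC-Ex rat in each of them.

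Some higher DEGs encode secreted proteins, gathered here after their values were seen and not as a list. Igfbp3, a carrier of insulin-like growth factors, had narrow ranges without overlap, 5.90 to 9.75 CPM in Sed (median 8.55) and 13.1 to 22.5 CPM in CC-Ex (median 15.4), and a Log2FC of 1.00 (SE 0.143, adjusted p = 0.00201) that sat at the size criterion. In the fits that leave out a rat it ran from 0.89 to 1.06. Pgf, placental growth factor, ran from 0.524 to 1.66 CPM in Sed rats (median 0.914), against 0.720 to 6.19 CPM in CC-Ex rats (median 5.25), with CC-Ex 1 and CC-Ex 4 at the Sed level and the other 4 above it (Log2FC 1.99, SE 0.481, adjusted p = 0.0426). Adm, the vasodilator adrenomedullin, had 1.78 (SE 0.411, adjusted p = 0.0361), and Stc1, stanniocalcin, 1.62 (SE 0.388, adjusted p = 0.0411). Of 22 endothelial markers Vwf was the only DEG (beside 0.516% of all genes higher) and the list median was 0.00. Kdr, the main receptor of VEGF, had a Log2FC of 0.72 (SE 0.193, adjusted p = 0.0596). The endothelial markers summed to between 665.8 and 1051 CPM in Sed (median 844.4) and between 634.6 and 1064 CPM in CC-Ex (median 918.7), with overlapping ranges, and their part in the Vwf value was not tested. In whole muscle, more endothelial cells and more transcript per cell cannot be told apart.

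Other higher DEGs included Cyp26b1, which degrades retinoic acid and ran from 1.07 to 4.40 CPM across Sed (median 1.39), and 3.35 to 8.98 CPM across CC-Ex (median 5.05). It was the higher DEG with CC-Ex 6 as its lowest rat, and its Log2FC was 1.52 (SE 0.308, adjusted p = 0.0207), or 1.59 without CC-Ex 5. Aldoc, an aldolase isoform otherwise known from brain, lay between 0.786 and 1.41 CPM in Sed and between 1.68 and 5.21 CPM in CC-Ex without overlap (Log2FC 1.51, SE 0.289, adjusted p = 0.0205). Armc2 and the unnamed gene AABR07008066.2 were likewise without overlap, with Log2FCs of 1.64 (SE 0.357, adjusted p = 0.0295) and 1.41 (SE 0.309, adjusted p = 0.0296). The ADP-ribosyltransferase genes Art5 and Art3 had 1.56 (SE 0.307, adjusted p = 0.0207) and 1.03 (SE 0.247, adjusted p = 0.0411). The remaining higher DEGs, Maff, Golm1, Tmem252, Cep85l, Galnt15, Sema6b, Nrbp2, Pnrc1, Crebrf and Fam107a, had Log2FCs between 1.01 and 2.27. Fmr1, which encodes an RNA-binding protein, had one of the smallest changes that passed the adjusted p-value, and its ranges did not overlap. It lay between 20.8 and 24.5 CPM in Sed and between 25.2 and 31.3 CPM in CC-Ex (Log2FC 0.39, SE 0.0684, adjusted p = 0.0144).

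The 9 lower DEGs had Log2FCs from -1.76 to -1.09. Irgm, an interferon-inducible GTPase of cell-autonomous immunity, ran from 5.00 to 20.0 CPM in Sed rats (median 11.4), against 2.79 to 5.83 CPM in CC-Ex rats (median 4.39). Only Sed 6 reached down to the CC-Ex range (Log2FC -1.41, SE 0.226, adjusted p = 0.00610). Anxa10, a member of the annexin family, lay between 3.40 and 10.3 CPM in Sed (median 3.86) and between 1.47 and 2.71 CPM in CC-Ex (median 1.69), without overlap (Log2FC -1.50, SE 0.274, adjusted p = 0.0146). Both were called in all 12 fits that leave out a rat.

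Pcbd1, an enzyme that recycles the cofactor of aromatic amino acid hydroxylases, had the largest decrease among the DEGs. It lay between 1.58 and 3.96 CPM in Sed (median 3.19) and between 0.471 and 1.73 CPM in CC-Ex (median 0.676), with CC-Ex 4 alone in the Sed range (Log2FC -1.76, SE 0.339, adjusted p = 0.0205). Genes that were not DEGs reached down to a Log2FC of -2.62. Slc25a30, a mitochondrial carrier, ran from 18.5 to 40.0 CPM across Sed (median 31.0), and 5.30 to 22.8 CPM across CC-Ex (median 6.69). Again CC-Ex 4, at 22.8 CPM, was the one rat that overlapped Sed (Log2FC -1.69, SE 0.397, adjusted p = 0.0378). Dynll1, a dynein light chain, lay between 22.1 and 40.6 CPM in Sed (median 30.9) and between 9.91 and 20.2 CPM in CC-Ex (median 11.9), without overlap (Log2FC -1.19, SE 0.272, adjusted p = 0.0335). Mamstr, a coactivator of the muscle transcription factor MEF2, had -1.24 (SE 0.278, adjusted p = 0.0316), Hs3st1, a heparan sulfate sulfotransferase, -1.32 (SE 0.327, adjusted p = 0.0476), and Palldl1 -1.09 (SE 0.263, adjusted p = 0.0411). Hopx, a homeodomain cofactor of muscle, passed the adjusted p-value at -0.98 (SE 0.222, adjusted p = 0.0325).

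Of 18 immediate-early factors, Maff was the only DEG (beside 0.516% of all genes higher). The slow-fibre, extracellular matrix, iron, ribosomal protein, clock and hemoglobin genes given next held no DEG in edgeR with every rat in. Of 18 slow-fibre sarcomere genes 10 were in the table, with a median Log2FC of 1.01 and wide intervals. Tnnc1, slow troponin C, ran from 6.62 to 311 CPM in Sed rats, against 0.375 to 1003 CPM in CC-Ex rats, and its Log2FC of 1.56 had an interval of -1.13 to 4.25. None of the 10 reached an unadjusted p-value under 0.05 in edgeR, against 1 in DESeq2 and 3 in limma-voom, which called Atp2a2, the slow calcium pump (Log2FC in edgeR 0.85, interval -0.04 to 1.74). The summed slow-fibre level ran from 1545 to 13078 CPM within CC-Ex, with CC-Ex 5 the lowest, and from 2254 to 7312 CPM within Sed.

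Of 43 extracellular matrix genes, none was a DEG in edgeR and the median was -0.50. At an unadjusted p-value under 0.05, 13 were lower and 2 higher, beside 6.42% and 13.8% of all genes. Col15a1, a basement membrane collagen, had the smallest values in CC-Ex 5, at 4.46 CPM, and ran up to 47.3 CPM in CC-Ex against 32.8 to 83.6 CPM in Sed (Log2FC -1.50, SE 0.448, adjusted p = 0.0794). It was a DEG in DESeq2 and limma-voom. Sparc, a collagen-binding glycoprotein, had -0.78 (SE 0.219, adjusted p = 0.0684). The summed fibroblast markers ran from 708.3 to 3820 CPM across Sed, and 652.8 to 2696 CPM across CC-Ex. Of these markers 3 of 11 were lower at an unadjusted p-value under 0.05, beside 6.42% of all genes. The part of fibroblast content in the matrix values was not tested.

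The transferrin receptor Tfrc, which imports iron, had all 6 CC-Ex rats (26.8 to 122 CPM) below all 6 Sed rats (161 to 241 CPM) with a Log2FC of -1.68 (SE 0.492, adjusted p = 0.0755), and was a DEG in DESeq2 and limma-voom. Of 61 cytosolic ribosomal protein genes none was a DEG in any of the 3 tools, but 59 had a Log2FC above 0 and the median was 0.22. At an unadjusted p-value under 0.05, 25 were higher, beside 13.8% of all genes. Rps10, a small-subunit protein, lay between 22.9 and 27.7 CPM in Sed and between 27.9 and 35.2 CPM in CC-Ex (Log2FC 0.32, SE 0.0883, adjusted p = 0.0670). Of 20 clock genes none was a DEG in edgeR, and DESeq2 and limma-voom called 3 each. In edgeR 7 were higher and 2 lower at an unadjusted p-value under 0.05, beside 13.8% and 6.42% of all genes. Bmal1, the activator of the clock, had a Log2FC of 1.55 (SE 0.559, adjusted p = 0.134) and its output gene Dbp -1.62 (SE 0.579, adjusted p = 0.130).

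Hemoglobin transcripts were called or not depending on the rats and the tool. Hbb, the beta chain, ran from 21.6 to 58.8 CPM in Sed rats (median 48.6), against 13.2 to 425 CPM in CC-Ex rats (median 142). CC-Ex 5 lay below every Sed rat and the other 5 CC-Ex rats above. With it the Log2FC was 1.95 (SE 0.573, adjusted p = 0.0755), and without it 2.18 (adjusted p = 0.0467). Hba-a1 and Hba-a3, alpha chains whose reads the counting may divide between near-identical copies, had 1.95 and 1.87, and 2.18 and 2.10 without CC-Ex 5, where both were DEGs. In edgeR all 3 genes were also DEGs without CC-Ex 4, and Hba-a1 without CC-Ex 1, while their median Log2FC was 1.47 without CC-Ex 2 with no DEG. DESeq2 and limma-voom called all 3 with every rat in. The log2 share of hemoglobin in all counts was 1.43 higher in CC-Ex (exact p = 0.0866), and 2.02 higher without CC-Ex 5 (exact p = 0.00216, the smallest that 5 against 6 rats can give). The part of residual blood in these values was not tested.

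The same 65 genes were then read in the other groups, each against the same 6 Sed rats. In CC-Sed, the disease without training, the 56 higher DEGs had Log2FCs against Sed of 0.73 to 5.28 with a median of 1.79, beside 1.00 to 6.52 with a median of 1.65 in CC-Ex. In Ex, training without the disease, they had -0.52 to 0.70 with a median of 0.07. The 9 lower DEGs had -1.84 to -0.77 in CC-Sed (median -1.45), -1.76 to -1.09 in CC-Ex (median -1.32) and -0.59 to -0.06 in Ex (median -0.27). As all share the Sed rats, and the genes were chosen in CC-Ex, these values are a description and their likeness was not tested. No gene was a DEG in Ex vs. Sed in edgeR, DESeq2 or limma-voom. At an unadjusted p-value under 0.05 there were 118, 146 and 411 of the 10851 genes. For CC-Ex vs. Sed the same counts were 2194, 2359 and 2920.

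**Figure D5:**
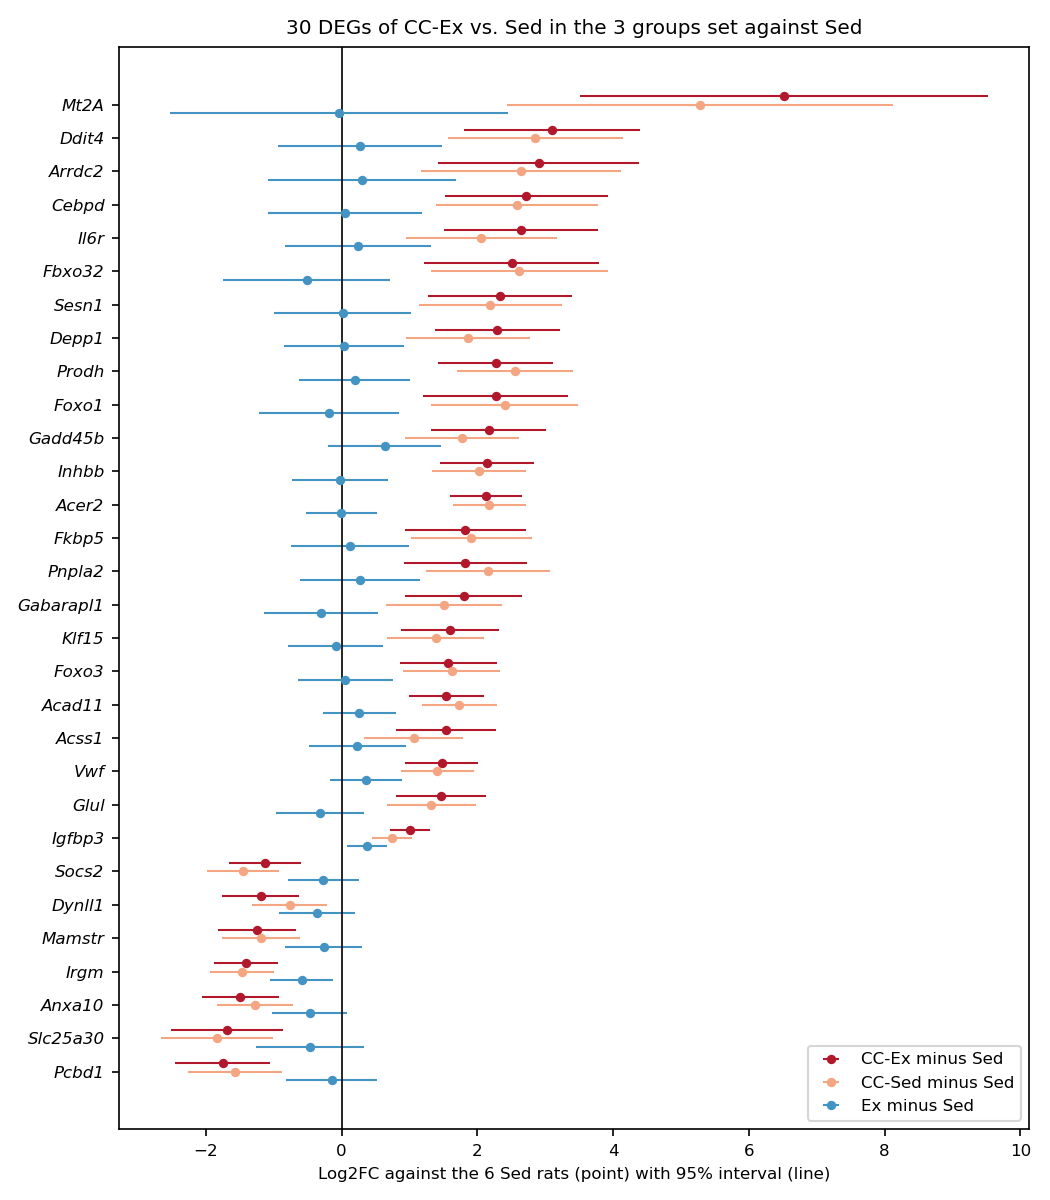
Log2FC with 95% interval of 30 DEGs of CC-Ex vs. Sed in CC-Ex (dark red), CC-Sed (light red) and Ex (blue), each against the 6 Sed rats, which all 3 share. For Acer2 the points are 2.13, 2.17 and -0.01, and for Anxa10 -1.50, -1.28 and -0.47.

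Set directly against CC-Sed, the trained cachectic rats had no DEG in edgeR, DESeq2 or limma-voom. At an unadjusted p-value under 0.05 there were 234, 299 and 835 of the 10851 genes. These stand beside the 2194, 2359 and 2920 of CC-Ex vs. Sed. For the 56 higher DEGs the Log2FC of CC-Ex minus CC-Sed ran from -0.74 to 1.24 (median 0.04), and for the 9 lower from -0.43 to 0.33. All 65 intervals held 0, with a median width of 1.42, so differences of moderate size between trained and untrained cachectic rats remain possible. For Acer2 the difference was -0.05 with an interval of -0.55 to 0.46, for Inhbb 0.12 (-0.53 to 0.76), for Vwf 0.06 (-0.46 to 0.59) and for Fbxo32 -0.11 (-1.34 to 1.11). Dgat2 was one of the genes the study names, at 0.62 in CC-Ex and 1.56 (adjusted p = 0.0160) in CC-Sed against Sed, and at -0.94 (interval -1.67 to -0.22) in CC-Ex against CC-Sed, where no gene passed the adjusted p-value. Nr4a3, an exercise-responsive nuclear receptor, was at 0.71 (adjusted p = 0.576) in CC-Ex and 3.73 (adjusted p = 0.0116) in CC-Sed against Sed. Set directly against CC-Sed it was at -3.02 (interval -4.54 to -1.49), again without passing the adjusted p-value. Its range in CC-Ex was 1.44 to 12.1 CPM, on both sides of the Sed range of 2.64 to 7.13 CPM. In Dgat2, CC-Ex 4 was far below the other CC-Ex rats, at 26.3 CPM with the next at 47.0 CPM. Dgat2 and Nr4a3 are picked from 32 genes that the study names, whose median in CC-Ex minus CC-Sed was -0.15. The intervals are not adjusted for the number of genes tested.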

How the data were processed

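The 24 poly-A libraries came from the medial gastrocnemius, 1 per rat. The authors trimmed reads with Trim Galore, quantified transcripts with Salmon against Ensembl build mRatBN7.2 and collapsed them to genes; the submitters' processing notes also name DESeq2 1.44.0. What they deposited are estimated counts in whole numbers, none below 10 in any rat, so rounding and the loss of low genes came before deposit. Groups and replicate numbers are those of the labels.

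The main test was edgeR 4.0.16 under R 4.3.3, with TMM scaling. The expression filter removed 0 genes. All 24 rats and 4 groups shared 1 quasi-likelihood fit over 10851 genes, so that the groups share 1 estimate of spread (the study's methods do not state which samples entered its fit), and p-values were adjusted by Benjamini-Hochberg. An SE is the size of the Log2FC divided by the square root of F. CPM values are not corrected for gene length. Single values per rat were compared by exact permutation over the rats, in both directions. Scripts were tested on simulated data. P-values measure the spread between rats, and every pair of replicates differed beyond sampling noise (lowest chi-square 43.8 per degree of freedom).

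Genes were named from the 15 largest and smallest Log2FCs among DEGs, the 10 smallest p-values and list members that were DEGs. Others came from up to 4 further list members by p-value, heads of lists, and genes the study names. Not every gene under this rule is given a value: Aqp4, Egr1 and Runx1, which the study names, are among those left out. DEGs outside this rule, such as Zfp622 and Armc2, were named after their values were seen. The members and gene lists were chosen with earlier results of these data known.

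Alternatives were DESeq2 1.42.0, limma-voom (limma 3.58.1) with quality weights, other scalings and filters, a fit of the 12 rats alone, a replicate block, the library number in the model, and leaving out each rat. Same-numbered rats are different animals. Their deviations from group means correlated between -0.324 and 0.424 over the 6 numbers, so the numbers do not pair them.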

Additional observations from a re-analysis of the deposited data

Results flagged for a closer look

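Values per rat, on the log2 scale, were compared within each group of 6 for 116 genes, total counts and the hemoglobin share, and a rat was singled out where its gap to the nearest rat took more of the group's range than Dixon's 95% critical value for 6 allows. Of 236 such groups tested, 20 were singled out; chance alone gives about 1 in 20. Of these, 8 were CC-Ex 5. It was far above the other CC-Ex rats in Itpk1 (25.9 CPM), Dbt (260.8 CPM), Map1lc3b (897.6 CPM), Tnfrsf21 (329.8 CPM), Map3k14 (35.4 CPM) and Nrip3 (43.2 CPM), and far below them in Tgfb3 (7.18 CPM) and Ndufc2 (21.7 CPM). CC-Ex 4 was above the rest in Slc25a30 (22.8 CPM) and below in Dgat2 (26.3 CPM), and CC-Ex 1 was above in Sparc (568.5 CPM).

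In Sed, replicate 1 was high in Acer2 (5.16 CPM) and Fmr1 (24.5 CPM), and replicate 3 in Socs2 (24.8 CPM) and Hopx (19.6 CPM). Sed 5 was high in Map3k14 (34.7 CPM) and low in Hbb (21.6 CPM), Hba-a1 (19.7 CPM), Hba-a3 (8.53 CPM) and the hemoglobin share of counts (0.00558%).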

How the results depend on the processing

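Against 65 DEGs (56 higher, 9 lower), DESeq2 called 189 (164, 25) of 10630 genes with an adjusted p-value, limma-voom 157 (109, 48), a model of only the 12 rats 1 (1, 0; 1719 genes at an unadjusted p-value under 0.05) and the adjusted p-value alone 127. In the model of 12 rats, the spread comes from those rats alone. With the replicate number as a block 24 were called (17 higher, 7 lower); the numbers join different animals, 1 of 6 matched best with its own number, and the block changed no direction of the 65. Upper-quartile scaling called 48 (38, 10) and the library number as a covariate 56 (49, 7). Leaving out 1 rat gave 6 to 257 DEGs, 4 to 208 higher and 2 to 49 lower. Lists with at least 2 DEGs numbered 15 in DESeq2, 13 in limma-voom, 0 in the model of 12 rats and 1 to 16 with a rat left out. The log2 hemoglobin share difference ran from 1.03 to 2.02 with a rat left out and passed the exact test only without CC-Ex 5 (2.02). Genes near the Sed level, whose interval lay within 1 of it, stayed between 7778 and 9521 under every alternative run. With a rat left out, the Log2FC of Ppargc1a ran from -0.091 (without CC-Ex 3) to 0.58, of Tnfrsf21 from -0.63 (without CC-Ex 5) to 0.74, of Nrip3 from -1.74 (without CC-Ex 5) to 3.01 and of Map3k14 from -0.93 to 0.070 (without Sed 5), each with a change of sign, and limma-voom gave -0.67 for Tnfrsf21 and -0.64 for Nrip3; none of these was a DEG, and the cause was not tested. Robust estimation, chosen after seeing the data, called 65. The effect of depth was not tested.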
